A study of Rattus norvegicus with 33 samples.

Results

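Cecal bacteria were compared between spontaneously hypertensive rats (SHR) with a high and with a low ratio of Firmicutes to Bacteroidetes. The 17 SHR were grouped by log2 of the percent of reads named Firmicutes over the percent named Bacteroidetes. The 8 highest and the 8 lowest rats formed the groups, 16 rats of the 33 in the series, and the middle rat was left out. Because the groups were chosen by these reads, differences in taxa and functions between them are given as descriptions with no test.

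The study sequenced DNA of cecal contents from male and female rats of 2 inbred strains aged 14 to 15 weeks, SHR, which develop high blood pressure, and Wistar Kyoto (WKY), their usual comparison strain. No treatment is named in the labels. The high-ratio group held 3 females and 5 males, the low-ratio group 6 females and 2 males, and the middle rat was a female. The 16 WKY rats, 9 females and 7 males, took no part in the ranking and served for the tests across functions and genera. Each library came from its own rat, but the labels give no cage, litter or batch, and p-values would be too small where rats shared a cage.

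Firmicutes and Bacteroidetes are the main bacterial phyla of the mammalian gut. Most Firmicutes have a Gram-positive wall, many form spores, and gut members ferment sugars to lactate, acetate and butyrate. Bacteroidetes have an outer membrane with lipopolysaccharide, take up glycans through TonB-dependent outer membrane transporters and ferment to acetate, propionate and succinate. The ratio of these phyla is often reported in work on blood pressure and obesity.

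The log2 ratio ran from 0.82 to 1.87 (median 1.40) in the high-ratio rats and from -0.72 to 0.06 (median -0.23) in the low-ratio rats. The lowest rat of the high group, SHR 5, stood at 0.82, the middle rat SHR 9 at 0.12, and the highest rat of the low group, SHR 2, at 0.06. The boundary on the high side therefore lay in a wide gap, and that on the low side in a narrow one. Firmicutes took 46.0% to 57.1% of assigned reads in the high group (median 52.3%) and 29.9% to 38.0% in the low group (median 34.6%). Bacteroidetes took 14.6% to 26.1% (median 19.2%) against 36.4% to 49.2% (median 40.6%). The mean difference, high minus low, was 17.2 percentage points for Firmicutes and -21.6 for Bacteroidetes, so the denominator differed the more of the pair. Their sum was 71.6 ± 3.22% (SD, n = 8) in the high group and 76.0 ± 1.72% (n = 8) in the low group.

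**Figure D1:**
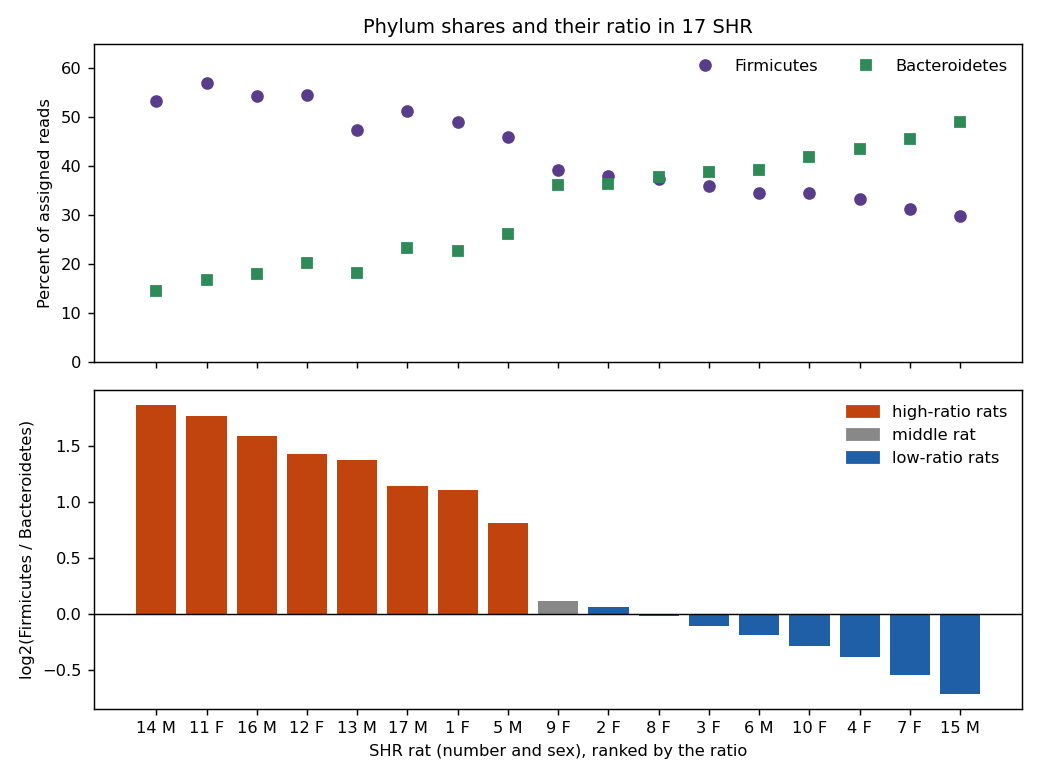
Percent of assigned reads named Firmicutes and Bacteroidetes (upper panel) and log2 of their ratio (lower panel) in each of 17 SHR, ranked by the ratio and marked with rat number and sex. Bacteroidetes stayed at or under 26.1% in the 8 high-ratio rats and at or above 36.4% in the 8 low-ratio rats.

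Of the other phyla, Proteobacteria took 11.2 ± 1.19% in the high group and 10.7 ± 0.970% in the low group (SD, n = 8 each), with overlapping rats. Actinobacteria took 7.15 ± 1.32% against 6.08 ± 0.711%, again with overlap. Verrucomicrobia, the phylum of the mucin-degrading genus Akkermansia, ran from 0.137% to 7.94% in the high group and from 0.152% to 0.993% in the low group.

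On the Firmicutes side, the greatest mean differences were those of Lactobacillus, a lactic acid bacterium, and Romboutsia, of the Peptostreptococcaceae, while most other Firmicutes genera were higher too. Lactobacillus, which ferments sugars to lactate and is abundant in the rodent foregut and small intestine, ran from 0.858% to 13.2% of reads (median 6.69%) in the high-ratio rats and from 0.858% to 4.42% (median 1.56%) in the low-ratio rats. Its mean was 4.83 points higher, 3.62-fold, yet the groups overlapped: SHR 1 of the high group had 0.858% and SHR 15 of the low group 4.42%. Romboutsia, a spore-forming resident of the small intestine, ran from 2.28% to 7.11% (median 5.39%) against 0.917% to 2.20% (median 1.64%), 3.05 points higher in mean and without overlap. Together these genera made up 45.8% of the Firmicutes difference.

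The next Firmicutes genera were Limosilactobacillus, which includes the gut resident L. reuteri, Clostridium, Turicibacter and Faecalibaculum. Limosilactobacillus took 2.13 ± 1.51% in the high group and 0.825 ± 0.403% in the low group (SD, n = 8 each). Clostridium took 2.88 ± 0.697% against 1.69 ± 0.274%. Turicibacter, a spore former of the small intestine, took 1.51 ± 0.577% against 0.615 ± 0.251%, and Faecalibaculum, a rodent resident, 0.853 ± 0.608% against 0.202 ± 0.123%. All 4 had higher means in the high-ratio rats and overlapping groups, and with the first pair the 6 genera made up 69.2% of the Firmicutes difference. Of that difference, 94.3% was named to a genus.

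The families gave the same picture with a contrast inside the phylum. Lactobacillaceae ran from 2.05% to 18.7% (median 11.8%) in the high group and from 1.86% to 5.52% (median 4.0%) in the low group, 36.9% of the Firmicutes difference. Peptostreptococcaceae took 5.5 ± 1.80% against 2.17 ± 0.498% and did not overlap. Lachnospiraceae, which hold many butyrate producers, took 10.2 ± 3.58% against 8.44 ± 1.95%, and 4 of the 8 high-ratio rats lay below the low group's median. Of its genera, Lachnoclostridium took 2.41 ± 0.927% against 2.10 ± 0.527% and Roseburia 1.35 ± 0.553% against 1.05 ± 0.274%, both with overlap. Oscillospiraceae and Ruminococcaceae, the other large families of butyrate producers and fibre degraders, took 4.54 ± 0.574% against 5.09 ± 0.900%, lower in mean in the high-ratio rats.

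On the Bacteroidetes side, the greatest mean differences were those of Bacteroides, Muribaculum and Parabacteroides. Bacteroides, broad degraders of plant and host glycans, ran from 3.09% to 7.74% (median 4.87%) in the high-ratio rats and from 9.25% to 17.3% (median 10.8%) in the low-ratio rats, a mean difference of -6.82 points. Muribaculum, of a family that is typical of the rodent gut, ran from 3.32% to 6.57% (median 4.98%) against 8.34% to 12.8% (median 8.93%). Parabacteroides ran from 0.674% to 1.12% (median 0.790%) against 2.19% to 10.3% (median 3.21%), with means 5.01-fold apart. None of the 3 overlapped, and together they made up 68.8% of the Bacteroidetes difference.

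Alistipes, of the Rikenellaceae, ran from 0.737% to 1.06% in the high group and from 1.65% to 3.70% in the low group, and Phocaeicola, split from Bacteroides, from 0.266% to 0.894% against 1.46% to 2.97%. Both were free of overlap. Duncaniella, a relative of Muribaculum, took 1.77 ± 0.527% against 2.86 ± 0.429% and overlapped. The 6 genera came to 88.3% of the Bacteroidetes difference.

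**Figure D2:**
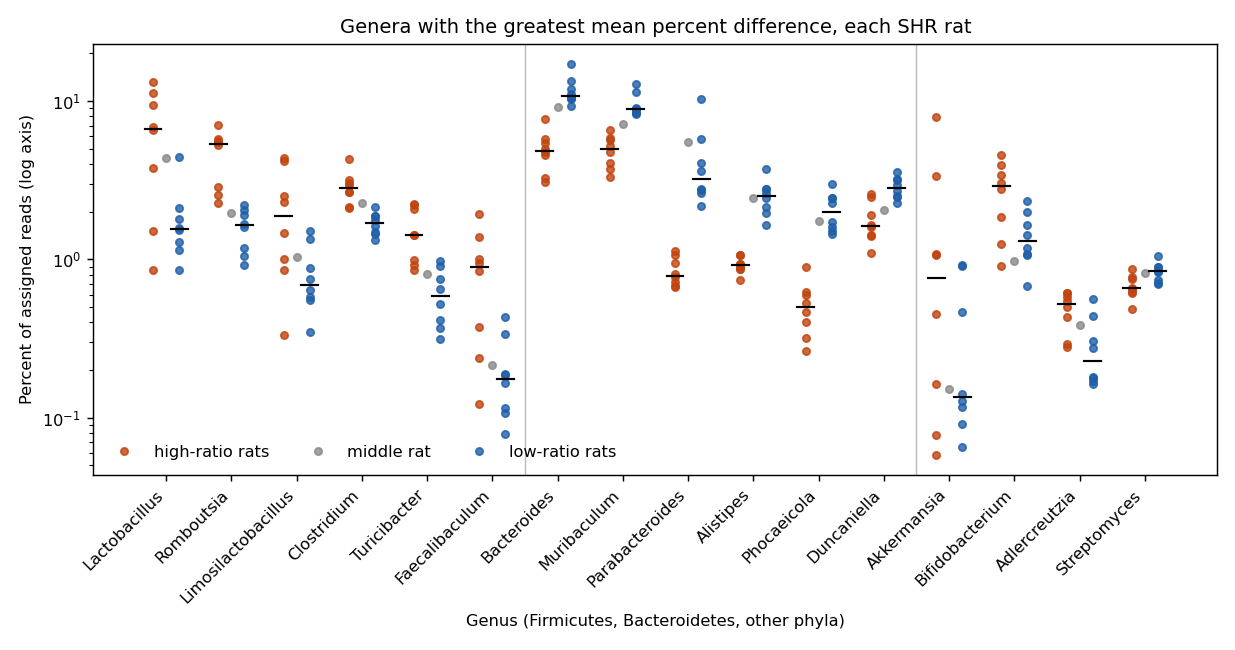
Percent of assigned reads (log axis) of the 16 genera with the greatest mean difference, 6 Firmicutes, 6 Bacteroidetes and 4 of other phyla, in each SHR rat, with black lines at the medians of the high-ratio and low-ratio groups. Parabacteroides lay at or under 1.12% in every high-ratio rat and at or above 2.19% in every low-ratio rat, while Akkermansia and Lactobacillus overlapped.

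The ratio did not rest on these genera alone. With Lactobacillus and Romboutsia taken out of Firmicutes, the groups differed by 1.46 in mean log2 ratio, against 1.66 with all genera. With Bacteroides, Muribaculum and Parabacteroides taken out of Bacteroidetes as well, they differed by 1.18, and the same 8 rats ranked highest in both cases. Among genera with a mean of at least 0.01% of reads, 175 of 187 Firmicutes genera had a higher mean in the high-ratio rats and 18 of them did not overlap. Of the 76 Bacteroidetes genera, 43 were lower and 33 higher in mean, and 12 lay below without overlap. In genera of other phyla, 140 were higher and 139 lower, and 2 did not overlap. Over all 542 such genera, 3.69% had every high-ratio rat above every low-ratio rat and 2.21% every one below. Among the listed genera of Flavobacteriales, a Bacteroidetes order of mostly environmental bacteria, 41 of 48 had higher means in the high-ratio rats without that minimum. Genus names are the deposited ones and were not checked against reads.

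At the species level, Lactobacillus johnsonii had the greatest mean difference, 4.64 ± 3.41% in the high group against 1.05 ± 0.642% in the low group (SD, n = 8 each), with overlap. Romboutsia ilealis took 4.45 ± 1.74% against 1.5 ± 0.461% and held nearly all reads of its genus. Limosilactobacillus reuteri took 1.69 ± 1.33% against 0.723 ± 0.408%. On the other side, Muribaculum sp. TLL-A4 had the greatest mean difference, with 1.85% to 4.11% in the high group against 4.98% to 9.87%, without overlap. Muribaculum intestinale took 1.82 ± 0.336% against 3.13 ± 0.502%, with overlap. Parabacteroides distasonis ran from 0.488% to 0.847% against 1.61% to 7.17%, and Phocaeicola vulgatus from 0.103% to 0.527% against 0.783% to 2.06%. Bacteroides uniformis ran from 0.156% to 0.801% against 0.913% to 2.23%. The last 3 species did not overlap between the groups.

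Outside both phyla, Akkermansia ran from 0.0580% to 7.88% (median 0.760%) in the high group and from 0.0655% to 0.918% (median 0.135%) in the low group. Its mean was 1.41 points higher in the high-ratio rats, but SHR 13 alone held 7.88% and 2 of the 8 lay below the low group's median. Bifidobacterium, which ferments sugars to acetate and lactate, took 2.72 ± 1.29% against 1.43 ± 0.548%. Adlercreutzia, a metaboliser of plant isoflavones, took 0.481 ± 0.134% against 0.284 ± 0.147%, and Streptomyces 0.679 ± 0.117% against 0.832 ± 0.114%. All 4 overlapped.

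Genera that are typical of the small intestine were summed as a list of 6, Lactobacillus, Limosilactobacillus, Ligilactobacillus, Romboutsia, Turicibacter and Candidatus Arthromitus. The sum ran from 4.80% to 25.1% (median 17.1%) in the high group and from 3.69% to 8.25% (median 5.71%) in the low group, and 5 of the 6 had higher means. Ligilactobacillus did not, with 0.928 ± 0.749% against 0.931 ± 0.805%. All 6 are Firmicutes, and 175 of the 187 Firmicutes genera of at least 0.01% had higher means. The count of 5 of 6 is therefore near the share of the whole phylum. Candidatus Arthromitus, the segmented filamentous bacteria of the ileum, took 0.0333 ± 0.0194% against 0.0177 ± 0.00549%. A list of 10 genera that often come from reagents summed to 1.37 ± 0.198% against 1.44 ± 0.147%, with 1 of 10 higher in mean. Of the genera of at least 0.01% outside both phyla, 140 of 279 were higher. Whether the sampled part of the gut contents differed between rats was not tested.

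Measures other than the phyla were tested in the 16 SHR by exact 2-sided tests, with adjustment over the 6. Sex, animal number and depth did not enter the ranking. Males numbered 5 of 8 in the high group and 2 of 8 in the low group (Fisher's exact test, p = 0.315, adjusted p = 0.315). The mean animal number in the labels was 11.1 against 6.88 (exact permutation test, p = 0.115, adjusted p = 0.152), and 6 of the 8 high-ratio rats stood above the low group's median. Libraries of the high group held 163140 to 610776 assigned reads and those of the low group 293114 to 705111, a mean log2 difference of -0.49 (exact permutation test, p = 0.126, adjusted p = 0.152). None of these passed, and with 8 rats a group they do not show that the groups were alike in sex, order or depth.

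Archaeal reads took 0.5 ± 0.0299% in the high group and 0.427 ± 0.0413% in the low group (SD, n = 8 each), and 7 of 8 high-ratio rats exceeded every low-ratio rat (exact permutation test, adjusted p = 0.0028). Eukaryotic reads took 0.841 ± 0.0772% against 0.652 ± 0.0719%, with 5 of 8 above every low-ratio rat (exact permutation test, adjusted p = 0.0028). These percents are of all assigned reads, which include both ranked phyla, so the tests on them are not independent of the ranking. Reads outside both phyla took 28.4% in the high group and 24% in the low group. As a share of the reads outside Firmicutes and Bacteroidetes, an alternative chosen after seeing the data, archaea differed by -0.0059 in mean log2 (exact permutation test, adjusted p = 0.951) and eukaryotes by 0.13 (adjusted p = 0.39). Viral reads, with the same dependence, ran from 0.0370% to 0.533% of all assigned reads against 0.0326% to 0.126% (exact permutation test, p = 0.123, adjusted p = 0.152).

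Functions followed the ratio as unevenly as the genera. A function is a SEED subsystem, a set of genes with a shared role, and its value is the reads assigned to it divided by a size factor of the library, called normalized reads here. Of 1057 functions, 20 (1.89%) had every high-ratio rat above every low-ratio rat and 43 (4.07%) every one below. Over the 1024 functions with a read, 502 had a higher mean log2 value in the high-ratio rats and 462 a lower one, and the median difference was 0. Functions that were lower in the high-ratio rats had the greater differences, with a median of -0.76 in those 43, against 0.39 in the 20 that were higher. When rats were ranked within each sex, so that 2 rats of the high group and 1 of the low group were replaced, 3 functions were free of overlap, 2 above and 1 below. Those groups overlapped on the ratio itself, with SHR 5 (log2 ratio 0.82) as low and SHR 9 (0.12) and SHR 2 (0.06) as high. Fewer functions without overlap would follow from that alone, and a part of sex in the drop was not tested. Reads give function and phylum alike, so the difference in a function and the ratio come from the same libraries.

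Named functions that were lower in the high-ratio rats included outer membrane transport, plant glycan use, a heme transporter and zinc resistance. Ton and Tol transport systems, which energise uptake across the outer membrane, ran from 1520 to 3413 normalized reads (median 2120) in the high group and from 5910 to 9881 (median 6439) in the low group, a mean log2 difference of -1.67. It was the most abundant function among those named. Cellulosome, a subsystem named after a complex of plant cell wall degrading enzymes, ran from 343 to 702 against 1086 to 1612. L-rhamnose utilization ran from 263 to 594 against 779 to 908. Their log2 differences were -1.44 and -1.19. Whether the reads of the former came from such complexes was not tested. Outer membrane ran from 46.0 to 122 against 183 to 219. Hemin transport system, which imports heme, had 18.4 to 58.5 against 82.8 to 171, and Zinc resistance 47.2 to 77.4 against 106 to 168. Other metal and heme functions went both ways. Higher in mean in the high group were Copper homeostasis, 932 against 721 without overlap, and Cadmium resistance, 122 against 89.8 with overlap. Heme, hemin uptake and utilization systems in GramPositives, 508 against 342 with overlap, was higher too. Lower were Cobalt-zinc-cadmium resistance, 1116 against 1316, and Copper homeostasis: copper tolerance, 90.1 against 116, both with overlap.

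The greatest log2 difference of a named function was -2.01, in a subsystem of serine endopeptidases, with 15.0 to 66.7 normalized reads against 101 to 160. Menaquinone and Phylloquinone Biosynthesis, which makes the membrane electron carrier vitamin K, had 35.7 to 72.6 against 88.0 to 137. Propionyl-CoA to Succinyl-CoA Module, steps between propionate and succinate, had 113 to 204 against 249 to 387. Na+ translocating decarboxylases and related biotin-dependent enzymes, which couple decarboxylation to a sodium gradient, had 105 to 193 against 221 to 290. None of these overlapped.

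Higher in the high-ratio rats were lactate fermentation and several housekeeping clusters. Fermentations: Lactate ran from 462 to 718 normalized reads (median 548) in the high group and from 349 to 459 (median 405) in the low group, a mean log2 difference of 0.51. The middle rat lay between the group medians. ATP-dependent Nuclease had 463 to 794 against 336 to 408, a difference of 0.61, and Hypothetical Coupled to RecF, named after a DNA repair protein, 123 to 187 against 82.4 to 119, a difference of 0.62. The subsystem of cell division clusters relating to chromosome partitioning had 1526 to 1947 against 1115 to 1329. Anaerobic respiratory reductases and Phage head and packaging were also free of overlap, with differences of 0.42 and 0.40. With rats ranked within each sex, that of Phage head and packaging was 0.17.

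**Figure D3:**
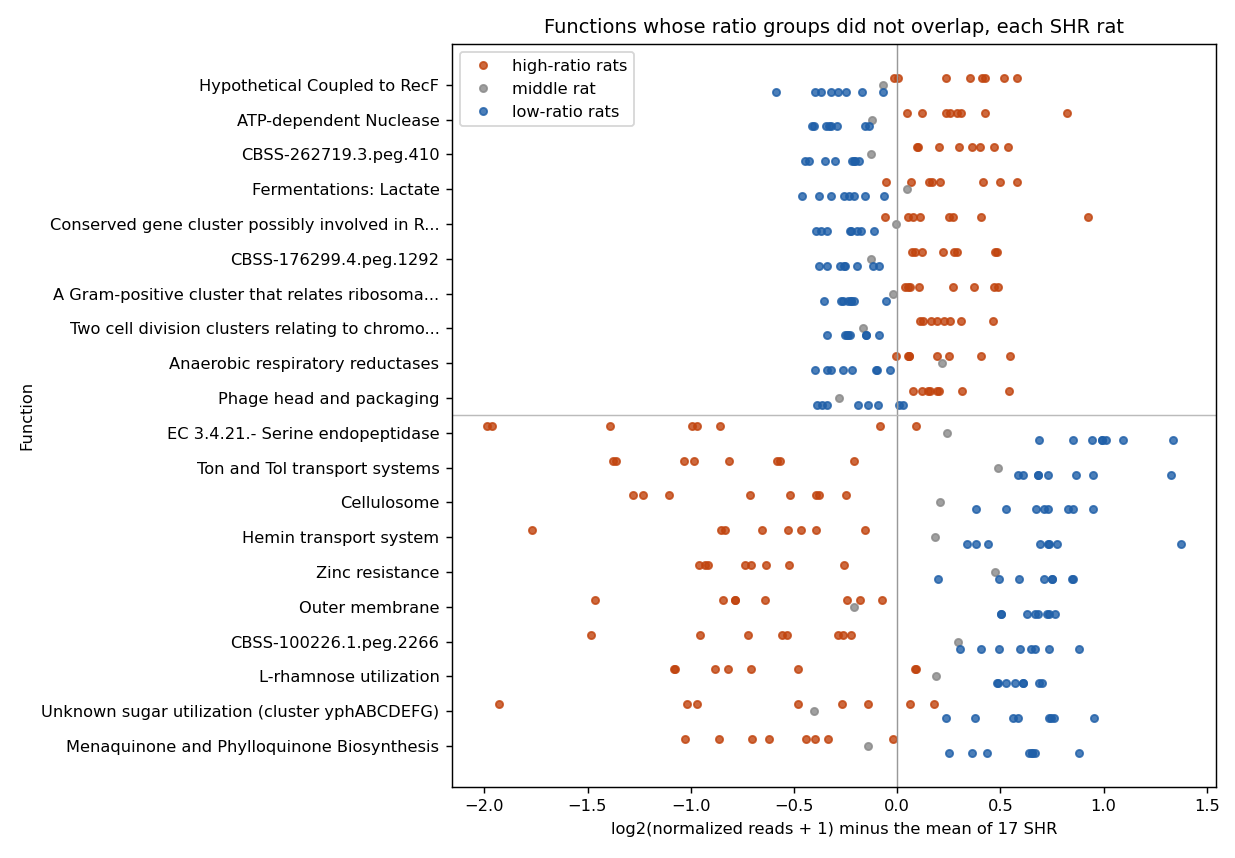
Normalized reads of 20 functions in each SHR rat, as log2(value + 1) minus the mean of 17 SHR, for the 10 higher and 10 lower functions with the greatest difference among those without overlap and a mean of at least 50. The lower functions spread over a wider range than the higher ones, from -2.01 to -1.12 in mean difference against 0.40 to 0.62.

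The functions were then followed in WKY rats, which the ranking did not use. In 16 WKY the log2 ratio ran from -0.79 to 3.57, a wider range than in SHR. For each of 1002 functions with reads in WKY, the slope of log2(normalized reads + 1) on the log2 ratio was fitted with limma, with sex as a covariate. Of them, 165 (16.5%) rose and 159 (15.9%) fell with the ratio at a limma adjusted p under 0.05. Of the 20 functions that were higher in high-ratio SHR, 19 rose in WKY, and of the 43 that were lower, 38 fell. In WKY, log2 Firmicutes changed by 0.28 and log2 Bacteroidetes by -0.72 per unit of log2 ratio. A function held mainly by either phylum would follow the ratio through this alone. The counts are therefore no independent support for the differences in SHR. Without the 3 WKY rats with a log2 ratio over 3, left out after seeing the data, 107 functions rose and 141 fell in all, and 16 of the 20 rose and 39 of the 43 fell. Those 3 rats, WKY 11, 12 and 13, were all males with animal numbers 28 to 30 in the labels.

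Named functions are given here with their slopes in WKY, where the ratio and the functions again came from the same libraries. Ton and Tol transport systems fell by 0.84 ± 0.0434 (SE) log2 units per unit of log2 ratio (limma adjusted p = 1.83e-10), Cellulosome by 0.80 ± 0.0419 (adjusted p = 1.83e-10) and Outer membrane by 0.74 ± 0.0445 (adjusted p = 8.84e-10). The serine endopeptidase subsystem had a slope of -1.0 ± 0.108 (limma adjusted p = 1.42e-06) and the Propionyl-CoA to Succinyl-CoA Module one of -0.67 ± 0.0604 (adjusted p = 1.77e-07). Hemin transport system (slope -0.45 ± 0.0942, limma adjusted p = 0.0012) and Zinc resistance (-0.55 ± 0.0985, adjusted p = 0.00026) also fell. Fermentations: Lactate rose by 0.22 ± 0.0490 (limma adjusted p = 0.0018) and ATP-dependent Nuclease by 0.43 ± 0.0389 (adjusted p = 2.06e-07). Phage head and packaging rose by 0.22 ± 0.0623 (limma adjusted p = 0.012), a call that was lost without the 3 high WKY rats (slope 0.23, adjusted p = 0.069).

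Across the 495 functions with a mean of at least 50 normalized reads in SHR, slopes fitted in SHR and in WKY had a Pearson r of 0.87 and a Spearman rho of 0.78, and 379 had the same sign. These are correlations across functions, which share reads and bacteria and are no independent replicates.

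**Figure D4:**
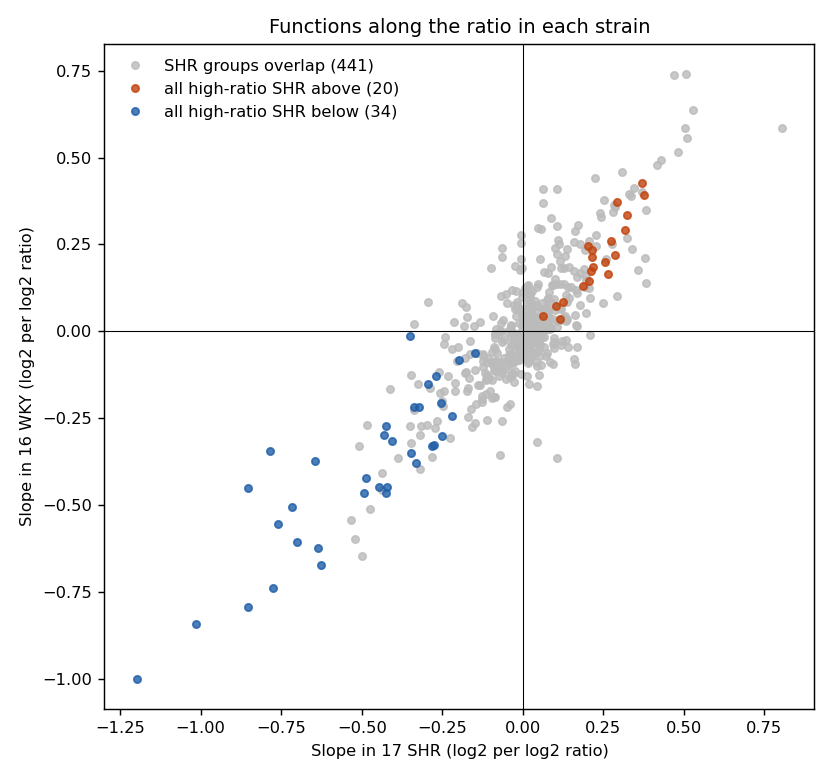
Slope of each of 495 functions on the log2 ratio in 17 SHR (horizontal) and in 16 WKY (vertical), in log2 units per unit of log2 ratio, with sex as a covariate. The 20 functions that were higher without overlap in high-ratio SHR are at the upper right and the 34 lower ones at the lower left.

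Functions were also counted in lists by role, to be read against the shares over all functions, 16.5% rising and 15.9% falling in WKY, and 1.89% above and 4.07% below without overlap in SHR. Of 9 spore formation functions, all 9 had higher means in high-ratio SHR, with a median log2 difference of 0.31 against 0 over all functions, and in WKY 6 rose. Sporulation Cluster had 93.2 to 260 normalized reads in the high group and 82.8 to 156 in the low group, and rose in WKY (slope 0.48 ± 0.0657, limma adjusted p = 1.94e-05). Of 7 functions on teichoic acids, polymers of the Gram-positive wall, and other Gram-positive features, 6 were higher in SHR (median 0.41), and of the 6 tested in WKY 5 rose. Polyglycerolphosphate lipoteichoic acid biosynthesis ran from 54.8 to 411 against 64.5 to 218, overlapping in SHR, and rose in WKY (slope 0.59 ± 0.0940, limma adjusted p = 9.92e-05).

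Of 12 functions on lipopolysaccharide and the outer membrane, 7 were lower in SHR (median -0.24) and 3 of these lay below without overlap. In WKY 4 fell and 1 rose, with a median slope of 0.02. The name pattern of the list also caught 2 functions of general lipid metabolism, Glycerolipid and Glycerophospholipid Metabolism in Bacteria, which was the 1 that rose, and Phospholipid and Fatty acid biosynthesis related cluster. Without these, 7 of 10 were lower in SHR (median -0.60), and 4 of 10 fell in WKY with a median slope of 0.02. KDO2-Lipid A biosynthesis, which makes the anchor of lipopolysaccharide, had means of 667 in the high group and 1086 in the low group and fell in WKY (slope -0.45 ± 0.0323, limma adjusted p = 1.06e-08). Of 14 functions on plant polysaccharides, 11 were lower in SHR (median -0.37), and 7 fell in WKY, with a median slope of -0.17. Of 6 on host glycan sugars, 4 were lower, and the median slope in WKY was -0.11. In WKY 2 fell, L-fucose utilization (slope -0.46 ± 0.0466, limma adjusted p = 6.47e-07) and N-Acetyl-Galactosamine and Galactosamine Utilization (slope -0.15 ± 0.0502, adjusted p = 0.025).

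All 4 functions of the sodium pump list were lower in mean in high-ratio SHR, with a median log2 difference of -0.60, and 3 fell in WKY. The list included Sodium Hydrogen Antiporter, by name an antiporter and not a pump. It had a mean of only 1.12 normalized reads in SHR, with overlap. Its difference of -0.67 rests on few reads and enters that median. In WKY the antiporter did not pass (limma adjusted p = 0.070). Na(+)-translocating NADH-quinone oxidoreductase and rnf-like group of electron transport complexes had means of 780 against 1112 and fell in WKY (slope -0.35 ± 0.0349, limma adjusted p = 5.16e-07). Of 23 functions on B vitamins and cofactors, 15 were lower (median -0.07), and 10 fell and 1 rose in WKY. Coenzyme B12 biosynthesis had means of 372 against 595, and it and the decarboxylases named above were the 2 of the list without overlap. The decarboxylases are biotin-dependent by name, not a vitamin synthesis function, and were also counted in the sodium pump list. Other functions on vitamin B12 differed less: Cobalamin synthesis had means of 373 against 373 and Cobalamin 404 against 451, both with overlap. Neither passed in WKY (limma adjusted p = 0.335 and 0.241). Of 24 functions on iron and heme, 12 were lower and 7 higher (median -0.05), and 5 fell and 1 rose in WKY, a falling share near that of all functions. Of 21 functions on phosphotransferase uptake and simple sugars, 14 were higher (median 0.16), and 7 rose and 2 fell in WKY. Those without overlap in SHR lay mostly on the other side, 3 below, among them Lactose utilization and Mannose Metabolism, and 1 above.

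In each of the remaining lists the rises and falls in WKY differed by at most 2. The 20 fermentation functions had a median difference of -0.05 in SHR and 5 rises and 5 falls in WKY. Acetyl-CoA fermentation to Butyrate had means of 271 in the high group and 240 in the low group, and its slope in WKY was 0.04 ± 0.0852 (limma adjusted p = 0.774). The 29 functions on menaquinone and respiration had a median of -0.0033 with 5 rises and 4 falls. Ubiquinone Menaquinone-cytochrome c reductase complexes had means of 17.5 against 4.56 and rose in WKY (slope 0.71 ± 0.152, limma adjusted p = 0.0014). Menaquinone Biosynthesis via Futalosine had 4.52 against 13.1 and fell (slope -0.95 ± 0.135, limma adjusted p = 2.95e-05). Both overlapped in SHR. The 27 functions on antibiotic resistance and efflux had a median of 0 with 6 rises and 6 falls. Among these 27, Multidrug Resistance, Tripartite Systems Found in Gram Negative Bacteria had 11.3 to 32 normalized reads against 53.2 to 106. The 24 on mobile elements and phages had a median of -0.02 with 3 rises and 3 falls, with Conjugative transposon, Bacteroidales at 1870 to 3842 against 3544 to 6159. Of 4 functions on flagella and chemotaxis, limma, edgeR and DESeq2 each called 0 in WKY, and 0 had an unadjusted p under 0.05 by any of them. Bacterial Chemotaxis had a slope of -0.01 ± 0.111 (limma adjusted p = 0.963). The 7 on peptidoglycan (median -0.30), 15 on amino acid synthesis (median -0.05) and 47 on ribosome and tRNA (median 0.09) gave 1 rise and 2 falls, 1 and 1, and 5 and 3. Of the 47, 36 were higher and 8 lower in mean in high-ratio SHR, and 2 lay above without overlap.

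Within each phylum, the make-up was tested in WKY as the share of a genus in its phylum. Of 263 genera of both phyla, 60 (22.8%) rose and 101 (38.4%) fell with the ratio (limma adjusted p under 0.05). Phylum shares enter both the measure and the ratio, however: in WKY log2 Firmicutes changed by 0.28 and log2 Bacteroidetes by -0.72 per unit of ratio, so a genus at a constant percent of reads would have a slope of -0.28 in Firmicutes and of 0.72 in Bacteroidetes. The direction of most calls was the direction of that dependence, with 99 of the 102 called Firmicutes genera falling and 57 of the 59 called Bacteroidetes genera rising. The counts are therefore not read as changes in make-up. An abundant genus is also part of the phylum percent in the ratio, so part of its own slope is built in.

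The 3 Firmicutes and 2 Bacteroidetes genera called against the constant-percent direction are given with that limit. Romboutsia rose within Firmicutes (slope 0.40 ± 0.0988, limma adjusted p = 0.00098), and so did Turicibacter (0.37 ± 0.0941, adjusted p = 0.0011), whose call was lost without the sex covariate (adjusted p = 0.055). Lactobacillus rose (slope 0.41 ± 0.123, limma adjusted p = 0.0053), and without the 3 high WKY rats its slope was 0.38 with an adjusted p of 0.145. Muribaculum fell within Bacteroidetes (slope -0.21 ± 0.0816, limma adjusted p = 0.028), but leaving out WKY 3 (slope -0.14, adjusted p = 0.103) or WKY 13 (-0.15, adjusted p = 0.091), or the 3 high WKY rats (-0.17, adjusted p = 0.156), ended the call. Phocaeicola fell (slope -0.25 ± 0.0921, limma adjusted p = 0.018), and leaving out WKY 3 ended the call (slope -0.22, adjusted p = 0.054). Bacteroides (slope -0.07 ± 0.0829, limma adjusted p = 0.47) and Parabacteroides (-0.05 ± 0.0738, adjusted p = 0.566) did not pass.

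In SHR, Lactobacillus took 12.5 ± 7.88% of Firmicutes reads in the high group and 5.55 ± 3.90% in the low group (SD, n = 8 each). Parabacteroides took 3.15% to 5.29% of Bacteroidetes reads in the high group and 5.62% to 20.9% in the low group, the only one of the 6 named Bacteroidetes genera free of overlap on this scale. Muribaculum took 24.3 ± 1.75% against 23.1 ± 4.41%, with a higher mean part of the phylum and a lower percent of all reads in the high-ratio rats. Flavonifractor, a Firmicutes genus chosen after its values were seen, took 1.24% to 2.61% of Firmicutes reads in the high group and 2.65% to 4.60% in the low group.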

How the data were processed

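Shotgun libraries of cecal DNA were deposited for 33 rats. The submitters' processing notes name cutadapt 2.6, Trimmomatic 0.36, FastQC 0.11.5 and DESeq2. The sources used here name no classifier or database. The authors deposited bacterial phyla, genera and species, and archaeal, eukaryotic and viral species, in percent of all assigned reads, and functions as a signal, the reads of a subsystem divided by a size factor. The smallest step of each column was taken as 1 read. Division by it returned whole numbers in 100% of values (tolerance 0.01 read) and 163140 to 886827 assigned reads per library. No edgeR or DESeq2 test was the main one. Depth bounds the counting error of a share only. Without molecular identifiers, PCR copies count as reads.

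The ranking used the deposited phylum percent. Named genera and species were those with the greatest mean differences, and named functions those with a mean of at least 50, no overlap and the 10 greatest log2 differences each way, plus the 2 greatest of each list. Ligilactobacillus, Candidatus Arthromitus, Roseburia, Lachnoclostridium and Flavonifractor were added outside that rule, as were KDO2-Lipid A and Coenzyme B12 biosynthesis, the sodium-translocating NADH-quinone oxidoreductase, butyrate fermentation, glycerolipid and phospholipid metabolism, copper homeostasis, heme uptake in Gram-positives, and lactose and mannose use, chosen after their values were seen. The cobalamin functions, copper tolerance, and cadmium and cobalt-zinc-cadmium resistance were added in the same way. Members and lists were chosen with earlier results of these data known.

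Single measures in SHR were compared by exact permutation over the 12870 divisions of 16 rats into 8 and 8, or by Fisher's exact test. Slopes in WKY were fitted with limma 3.58.1 (R 4.3.3) on log2(normalized reads + 1), or on the log2 share of a genus in its phylum with 0.0001% added to the percent, for genera with a mean of at least 0.01%, and were tested on simulated data. P-values were adjusted by Benjamini-Hochberg over all features of a table. Differences of low functions are understated on this scale. Alternatives used DESeq2 1.42.0 and edgeR 4.0.16. The rest ran in Python 3.11.15 with scipy 1.17.1, pandas 2.3.3 and numpy 2.4.6. The design took percent as percent of bacterial reads; it was percent of all assigned reads. Alternatives covered the size of the groups, ranking within sex, pseudocounts, filters, scaling, count tests on recovered reads, the sex covariate and each WKY rat left out. The deposited tables of the authors' own comparisons were not used here.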

Additional observations from a re-analysis of the deposited data

Results flagged for a closer look

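In 106 groups of 8 SHR values checked, 12 had a rat far from the others, measured as its gap to the nearest rat over the range of the group. By chance the flag marks about 1 in 20 groups of normally distributed values. Percents of taxa can be skewed, and the rate for them was not measured. Not all of these flags are independent, since a genus and its main species share reads. SHR 15, the rat with the lowest ratio, stood above the rest of the low group in Lactobacillus (4.42%, next 2.12%), Lactobacillus johnsonii (2.43%), Parabacteroides (10.3%, next 5.72%), Parabacteroides distasonis (7.17%), viral reads (0.126%) and Hemin transport system (7.42 as log2 normalized reads). SHR 13 stood above the rest of the high group in Akkermansia (7.88%, next 3.36%) and Akkermansia muciniphila (7.87%). SHR 7 stood above the low group in Bacteroides uniformis (2.23%). SHR 11, whose library was the shallowest, was far from the high group in a conserved gene cluster possibly involved in RNA metabolism (8.42 as log2 normalized reads, high) and in Hemin transport system (4.28, low). SHR 14 held 0.533% viral reads, against at most 0.107% in the other high-ratio rats.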

How the results depend on the processing

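Each result was recomputed under other settings, changing 1 at a time; leaving out rats by depth or ratio, thinning and the share of reads outside both phyla were added after seeing the data. With the top 5 against the bottom 5 rats, the mean log2 ratio differed by 2.03 (Firmicutes 0.70, Bacteroidetes -1.33) and 161 functions did not overlap, 64 above and 97 below. With ranking within each sex, it differed by 1.34 (Firmicutes 0.47) between groups that overlapped on the ratio itself, and 3 functions did not overlap, 2 above and 1 below. In mean log2, Phage head and packaging then differed by 0.17 (main groups 0.40) and Zinc resistance by -1.0041 (main groups -1.36). Parabacteroides differed by -1.56 (main groups -2.16) and Alistipes by -1.06 (main groups -1.41). Function reads thinned to the shallowest SHR library left 44 functions without overlap, 14 above and 30 below, against 63 with all reads. Zinc resistance then differed by -1.0996. Leaving out the 2 SHR rats under 250000 reads, both of the high group, gave 70, 23 above and 47 below. A lack of overlap is easier to reach with fewer rats, here and with the top 5 against the bottom 5. As a share of the reads outside both phyla, archaea differed by -0.0059 and eukaryotes by 0.13 in mean log2. Without the 3 WKY rats with a log2 ratio over 3, 107 functions rose, and 53 within-phylum genus shares fell. With genera of at least 0.1% only, of which fewer were tested, 37 within-phylum shares were called, 7 rising and 30 falling; with no filter, 244, of which 125 rose. Leaving out each WKY rat in turn gave 133 to 181 rising and 146 to 172 falling functions. Within-phylum slopes that passed no test changed sign: Clostridium was -0.0043 with no sex covariate, -0.034 without the 3 high WKY rats and -0.053 to 0.057 with 1 rat left out; Alistipes was -0.055 without those 3 and -0.057 to 0.13 with 1 left out; Ligilactobacillus was 0.30 without those 3 and -0.28 to 0.025 with 1 left out; Faecalibaculum was -0.30 to 0.022 with 1 left out. No paired analysis was possible because the labels give no numbers shared between the groups. Depth from 163140 reads limits genera and functions with few reads.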
